A study of Mus musculus with 22 samples.

Results

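The 10 major messenger RNAs (mRNAs) of mitochondrial DNA were followed across 22 RNA-seq libraries of mouse spinal cord: mt-Nd1, mt-Nd2, mt-Nd4, mt-Nd5 and mt-Nd6 of complex I, mt-Cytb of complex III, mt-Co1, mt-Co2 and mt-Co3 of complex IV, and mt-Atp6 of complex V. They were chosen by name and not by a rule on their values, but with earlier results of these data known. They are 10 of the 21995 genes in the deposited table, which holds 13 mRNAs of mitochondrial DNA in all. The others, mt-Nd3, mt-Nd4l and mt-Atp8, are described where they bear on these 10, and the ribosomal RNAs of mitochondrial DNA were not analysed here. For aging, whole cords came from wild-type male C57BL/6 mice, 8 young at 3–4 months and 8 old at 18–24 months, with Roche KAPA Hyperprep libraries. For amyotrophic lateral sclerosis (ALS), cords came from 3 SOD1 G93A mice, labelled G93a, and 3 wild-type mice, labelled WT_G93a_Control, of strain C57BL/6 at 5–6 months, with Illumina TruSeq libraries. SOD1 G93A is a high-copy human transgene for a mutant superoxide dismutase, and the mice develop motor neuron disease. Each of these last 2 groups held 2 females and 1 male, which the labels do not assign to libraries. No library is shared between the comparisons, and kit, experiment and sex cannot be told apart from the difference between them.

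Mitochondria make ATP by oxidative phosphorylation. Complex I takes electrons from NADH and complex II from succinate, complex III passes them to cytochrome c, complex IV hands them to oxygen, and complex V uses the proton gradient so built to make ATP. All of these except complex II combine subunits encoded in mitochondrial DNA with subunits encoded in the nucleus. Mitochondrial DNA is a small circle present in many copies per cell. Each of its strands is transcribed as a long precursor that is cut, mostly at transfer RNAs, into mRNAs, most of which receive poly(A) tails. All members except mt-Nd6 come from the precursor of one strand, and mt-Nd6 comes from that of the other and lacks a regular tail. Neurons, with long axons and constant ion pumping, depend heavily on this pathway.

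The ends of the members and the places where they overlap are shown because they bear on how reads could be assigned. The sequences are those of GENCODE M21 on GRCm38, the build also named mm10, and run 5′ to 3′ along each mRNA. Of the 10 members, 9 lie on one strand between chrM:2751-3707 (mt-Nd1) and chrM:14145-15288 (mt-Cytb), and mt-Nd6, at chrM:13552-14070, lies on the other. The last 15 bases are given for mt-Co1, which ends in a full stop codon, and for mt-Co3, mt-Nd4 and mt-Cytb, which end in a single T that the poly(A) tail completes to a stop codon. Capitals mark the bases of the stop codon.
mt-Co1: gtaaaagtaaaaTAA
mt-Co3: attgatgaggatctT
mt-Nd4: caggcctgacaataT
mt-Cytb: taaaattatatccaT
The reading frames of mt-Atp8 and mt-Atp6 lie on a single mRNA and share 43 bases, chrM:7927-7969. Those of mt-Nd5 and mt-Nd6 meet tail to tail on opposite strands and share 14 bases, chrM:13552-13565. Capitals mark the shared bases, with 12 bases on each side, and the second window is written on the strand of mt-Nd5.
mt-Atp8 and mt-Atp6: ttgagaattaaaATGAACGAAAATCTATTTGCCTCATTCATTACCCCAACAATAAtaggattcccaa
mt-Nd5 and mt-Nd6: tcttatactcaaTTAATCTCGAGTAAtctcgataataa
Whether reads were counted by strand is not given in the sources used here, so reads in the second overlap cannot be divided between mt-Nd5 and mt-Nd6. The strands differ in composition: the mt-Nd6 mRNA is 28.1% G and 5.97% C, whereas the other members hold between 8.0% (mt-Nd2) and 16.1% (mt-Co1) G.

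The members mt-Co2, mt-Atp6 and mt-Co3 have near-perfect copies in the nuclear genome, and their counts are uncertain. They matched the annotated pseudogenes Gm28661, Gm10925 and Gm28437 on chromosome 1 at 100% identity over 681, 678 and 783 bases, which is all but their last bases. mt-Nd4 matched Gm28439 at 100% over 876 bases, 63.6% of its length. mt-Co1 matched Gm13340 at 97.6% over its full length, and mt-Nd2 matched Gm13339 at 96.7% over 510 bases. The highest-scoring annotated match of mt-Nd5 was 92.3% identical, and that of mt-Nd1 76.6%. Those of mt-Nd6 and mt-Cytb were 93.6% and 92.9% identical. For mt-Nd5, 1 annotated gene matched at 95% or more over at least 100 bases. Outside the members, mt-Nd4l matched Gm10222 at 100% over 294 bases, and mt-Nd3 matched Gm28438 at 99.7% over 345 bases. None of the highest-scoring matches has a row in the table. The deposited counts of mt-Atp6 were exact multiples of 214 in all 22 libraries, from 7 to 96 times that number. Counts of mt-Co3 lay between 761 and 780 in 8 libraries and between 1504 and 1537 in a further 7, and 1 young library (library 3) had a count of 1. Among 9869 genes with counts in every library and a highest count above 200, only 3 had exact multiples of a number from 50 to 1000 in at least 15 libraries: mt-Atp6, mt-Nd3 (multiples of 103 in 21 libraries) and mt-Nd4l (multiples of 86 in 15). The part of the nuclear copies in these steps was not tested.

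**Figure D1:**
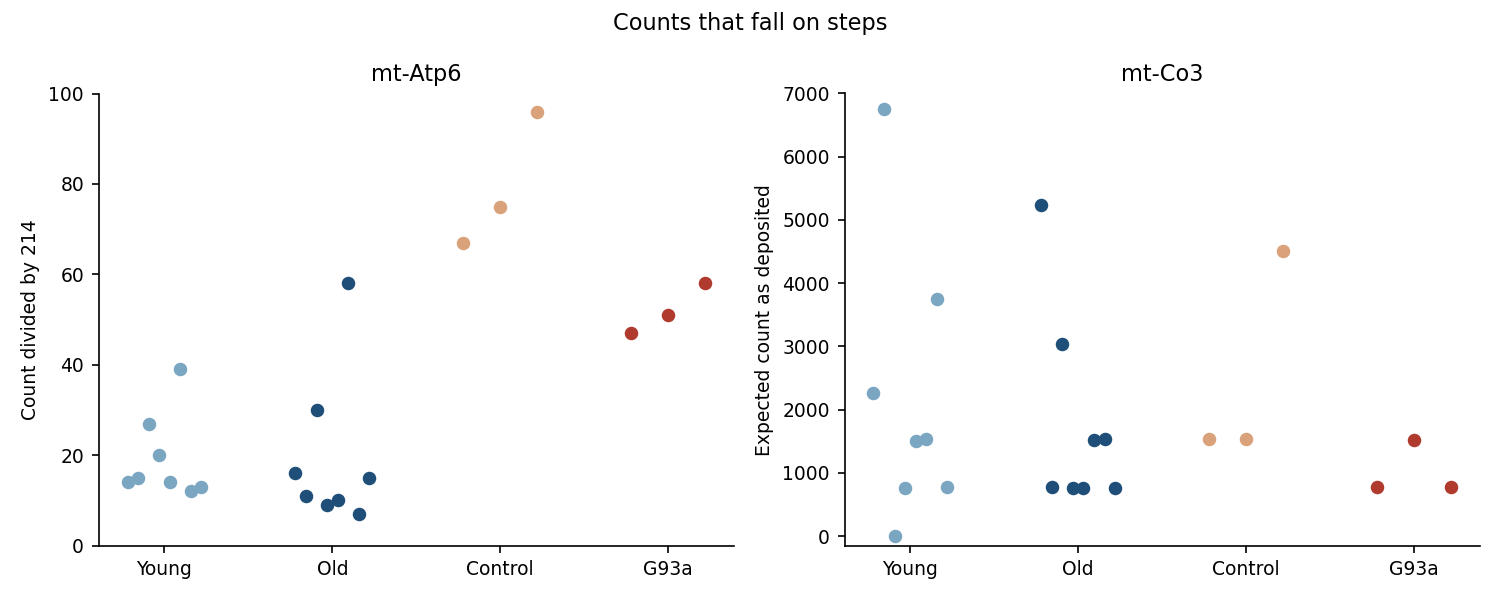
Counts of mt-Atp6 divided by 214 (left) and deposited expected counts of mt-Co3 (right), 1 point per library, by group. Every mt-Atp6 point is a whole number from 7 to 96, and mt-Co3 points gather between 761 and 780 and between 1504 and 1537.

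Per length, mt-Co1, which codes for the catalytic core of cytochrome c oxidase, had the highest measured level of the 10. The deposited FPKM values (fragments scaled for transcript length and sequencing depth) had medians in young mice of 16112 for mt-Co1, 9443 for mt-Cytb, 8486 for mt-Nd1, 7909 for mt-Nd4, 5845 for mt-Nd2, 3505 for mt-Nd6 and 2618 for mt-Nd5. The medians of mt-Atp6, mt-Co2 and mt-Co3 in the same mice were far lower, at 536, 535 and 210.3. These last members have the near-perfect nuclear copies and uncertain counts described above, so their places in the order are uncertain too. Over all 22 libraries the FPKM level of mt-Co1 exceeded that of mt-Cytb in 22 and that of mt-Cytb exceeded that of mt-Nd1 in 21. The order of mt-Nd1 over mt-Nd4 held in 19 libraries, that of mt-Atp6 over mt-Co2 in 18 and that of mt-Co2 over mt-Co3 in 14. mt-Atp8 and mt-Atp6 are cut from the precursor as 1 mRNA, yet the FPKM level of mt-Atp8 was 4.19 to 20.4 times that of mt-Atp6 in young, 6.42 to 37.4 times in old, 6.48 to 8.25 times in control and 6.08 to 8.93 times in SOD1 G93A mice. The FPKM level of mt-Nd4l was 0.257 to 0.484 times that of mt-Nd4, with which it shares an mRNA, in young, 0.144 to 0.557 times in old, 0.708 to 0.812 times in control and 0.537 to 0.646 times in SOD1 G93A mice.

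Together the 10 members took 7.07% ± 1.11 (SD, n = 8) of all counts in young mice and 7.36% ± 2.55 (n = 8) in old mice. They took 7.26% ± 0.357 (n = 3) in the control mice of the ALS experiment and 5.33% ± 0.350 (n = 3) in SOD1 G93A mice. Young libraries ran from 5.62% to 8.86% with a median of 7.08%, and old libraries from 5.10% to 12.7% with a median of 6.97%. The control libraries stood at 7.64%, 7.20% and 6.94%, and the SOD1 G93A libraries at 5.24%, 5.71% and 5.03%. The young and old ranges overlapped, with the old range extending past the young range at both ends. Every SOD1 G93A library lay below every control library. The libraries held 5078092 to 9358055 counts in young, 5664869 to 9145600 in old, 10693060 to 13219797 in control and 9675610 to 11872431 in SOD1 G93A mice. Libraries are numbered here in the order of the table's columns, which name a group and no replicate.

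**Figure D2:**
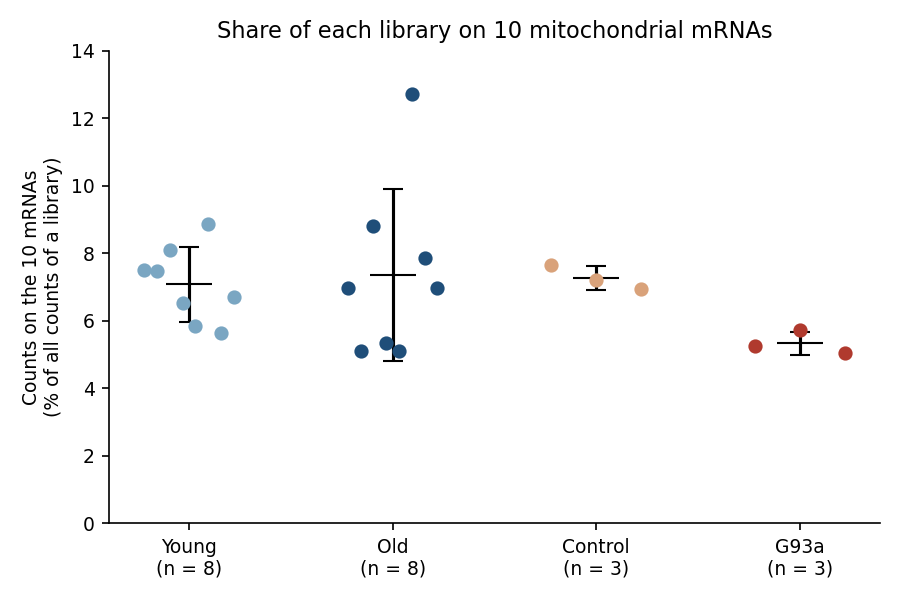
Counts on the 10 mitochondrial mRNAs as a percent of all counts of a library, 1 point per library, with the mean (bar) and SD of each group. The SOD1 G93A libraries (5.03% to 5.71%) lie below the control libraries (6.94% to 7.64%), and 1 old library stands at 12.7%.

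Aging was examined first. No member was called between old and young spinal cord: 0 of 10 had an adjusted p under 0.05 in edgeR's quasi-likelihood test, where 26.4% of all 13647 genes tested were called, and 2.22% passed with a log2 fold change beyond 1. No member had an unadjusted p under 0.05, which 37.6% of all genes had, and DESeq2 also called 0. Log2 fold changes ran from -0.13 for mt-Co3 to 0.43 for mt-Co2, with a median of 0.09, beside -0.0027 over all genes tested. The 2 groups overlapped for every member, whereas they did not overlap for 5.33% of all genes tested, 1.66% with old lower. In simulated counts of this design, 74% of genes changed by a log2 of 0.5 were called. Those genes were drawn at random from the genes tested. The SEs of the members ran from 0.12 for mt-Co1 to 0.56 for mt-Co3, so this share cannot be taken as theirs.

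For the complex I members, the level as counts relative to library size (CPM, scaled by TMM within a comparison) was compared with its spread. mt-Nd1, a membrane subunit near the quinone site, had 6119, 8309 and 10919 CPM (lowest, median and highest) in young mice and 5485, 8575 and 16564 CPM in old mice. Its log2 fold change was 0.10 ± 0.18 (SE, adjusted p = 0.718). mt-Nd2 had 4296, 6230.1 and 9072 CPM in young and 3132, 5213 and 12576 CPM in old mice. Here the median of the old mice was the lower of the 2, and the log2 fold change was -0.10 ± 0.22 (adjusted p = 0.782). mt-Nd4, a proton-pumping subunit, had 7957, 11308 and 15446 CPM in young and 7057, 11069 and 25298 CPM in old mice. Those of mt-Nd5, also a proton-pumping subunit, were 3664, 5031 and 7023 CPM in young and 3153, 4147 and 10362 CPM in old mice. mt-Nd6, the only mRNA of its strand, had 1285, 1811 and 2428 CPM in young and 1116, 1555 and 4186 CPM in old mice. For all of these complex I members the old range extended beyond the young range at both ends, as it did for mt-Cytb, mt-Co1 and mt-Atp6.

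Of the remaining members, mt-Cytb, the cytochrome b of complex III, had 9058, 11228 and 13887 CPM in young and 8477, 11027 and 22263 CPM in old mice. mt-Co1 had 21936, 26106 and 30496 CPM in young and 19621, 26229 and 44019 CPM in old mice. These 2 members varied less between libraries than the others: the SD of mt-Co1 was 11.8% of its mean in young and 29.6% in old mice. mt-Co2, which carries the copper site that receives electrons from cytochrome c, had 93.4, 365 and 601 CPM in young and 215, 399 and 878 CPM in old mice (log2 fold change 0.43 ± 0.29, adjusted p = 0.306). mt-Co3, a structural core subunit, had 0.13, 169 and 769 CPM in young and 81.1, 173 and 713 CPM in old mice. mt-Atp6, the membrane subunit of the proton channel of ATP synthase, had 339, 368 and 916 CPM in young and 205, 389 and 1914 CPM in old mice. mt-Co3 and mt-Atp6 had the widest relative spreads in old mice, with SDs of 87.2% and 95.7% of their means, and both have the stepped counts described above.

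A single old library drew the old means upward. Old library 6 was the highest old library for 9 of 10 members, the exception being mt-Co3, and its share of 12.7% exceeded the next old library at 8.81%. Young library 6 was likewise the highest young library for 9 of 10 members, again all except mt-Co3. Without Old library 6 the difference in mean share, old minus young, went from 0.282 to -0.483 percentage points. The log2 fold changes went from 0.10 to -0.08 for mt-Nd1, from 0.08 to -0.16 for mt-Nd4 and from 0.13 to -0.06 for mt-Cytb, and no member was called. The summed level of the 78 nuclear subunit genes in that library was 10093 CPM, the lowest of the old libraries, which reached 11874 CPM. Among old libraries it also had the highest summed level of 10 neuron markers, 10952 CPM, and the lowest of 10 microglia markers, 619 CPM. The part of cell composition in its high share was not tested.

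**Figure D3:**
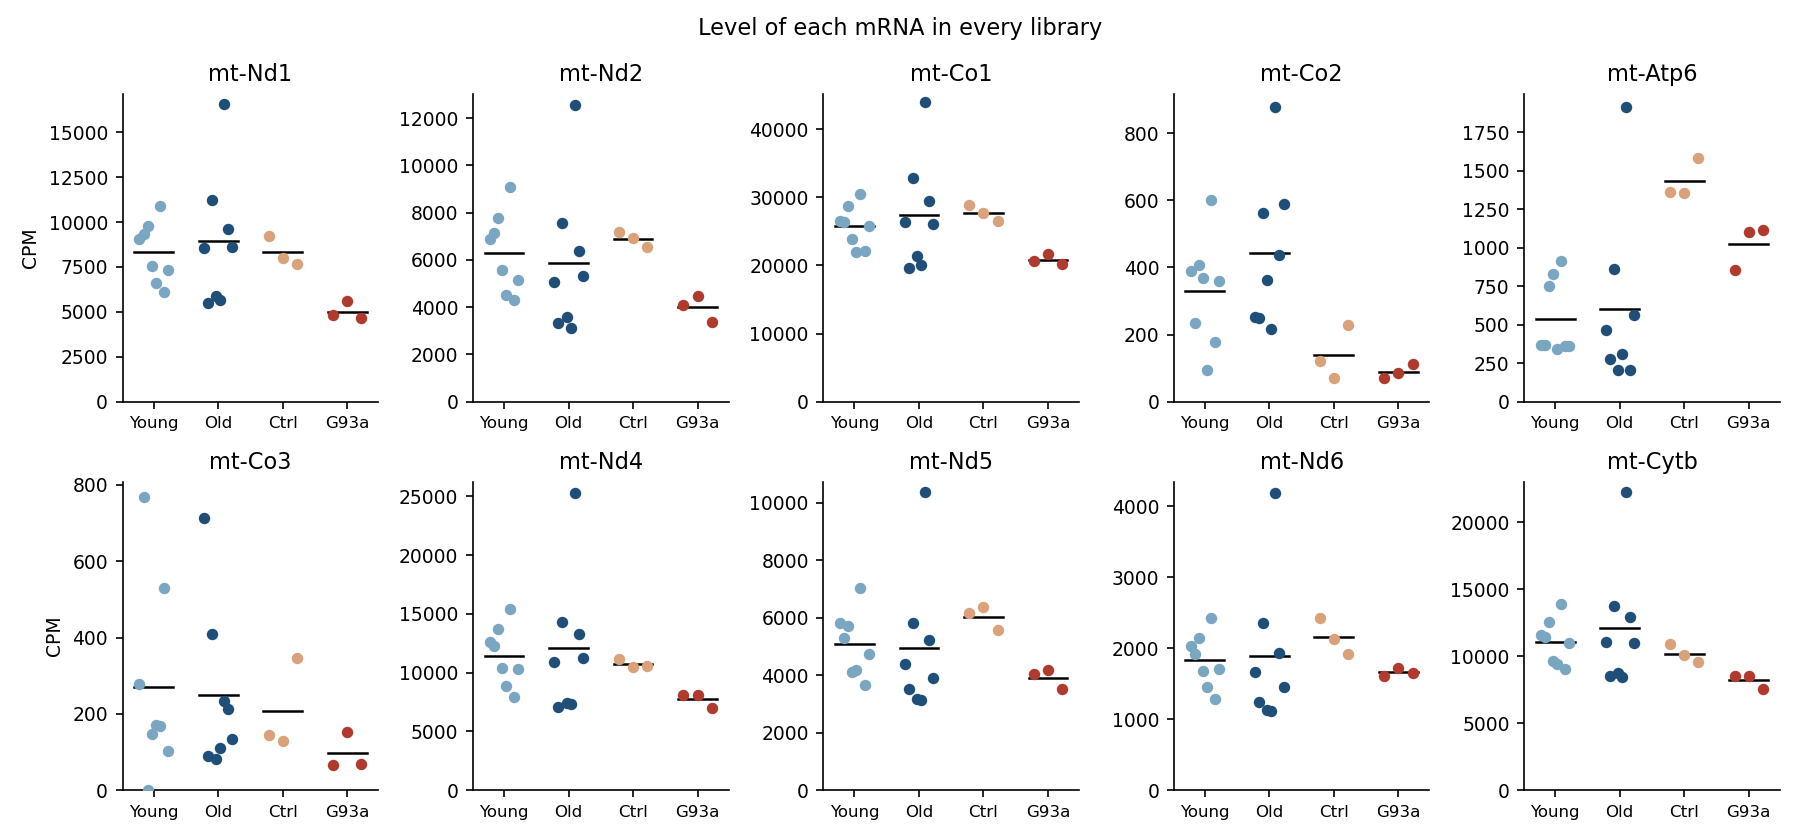
Level of each of the 10 mRNAs in CPM, scaled within each comparison, 1 point per library with the group mean as a bar; Ctrl is the wild-type control of the ALS experiment. Old and young points overlap in every panel, whereas the SOD1 G93A points lie below the control points in every panel except mt-Co2 and mt-Co3.

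ALS was examined next. In SOD1 G93A spinal cord 7 of 10 members fell, with 0 higher: mt-Nd1, mt-Nd2, mt-Nd4, mt-Nd5, mt-Nd6, mt-Co1 and mt-Atp6. Of all 14386 genes tested, 33.9% were called in either direction, and 15.5% were called lower. The median log2 fold change of the members was -0.56, beside 0.0031 over all genes tested. None was beyond the fold threshold of the study, a log2 fold change of 1 with an adjusted p under 0.05, which 9.7% of all genes passed. The groups did not overlap for 8 of 10 members, all lower in SOD1 G93A, beside 50.4% of all genes tested in either direction and 24.7% lower. In these whole cords, fewer cells of a type and less RNA per cell cannot be told apart.

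The steepest of the called members belonged to complex I. The level of mt-Nd2 was 7196, 6915 and 6546 CPM in control and 4095, 4488 and 3391 CPM in SOD1 G93A libraries, a log2 fold change of -0.79 ± 0.13 (SE, adjusted p = 0.00266). mt-Nd1 stood at 9228, 8015 and 7687 CPM in control and 4813, 5610.2 and 4636 CPM in SOD1 G93A libraries (-0.73 ± 0.12, adjusted p = 0.00343). For both, the highest SOD1 G93A library was well under the lowest control library. mt-Nd5 measured 6166, 6362 and 5572 CPM in control and 4041, 4190.3 and 3507 CPM in SOD1 G93A libraries (-0.62 ± 0.11, adjusted p = 0.00455). mt-Nd4 measured 11198, 10472 and 10564 CPM in control and 8072, 8071 and 7012 CPM in SOD1 G93A libraries (-0.48 ± 0.11, adjusted p = 0.011). The lowest library of the 6 for mt-Nd5 and mt-Nd4 was SOD1 G93A library 3. mt-Nd6, from the other strand, measured 2417, 2131 and 1911 CPM in control and 1607, 1726 and 1646 CPM in SOD1 G93A libraries (-0.38 ± 0.11, adjusted p = 0.0293).

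mt-Cytb of complex III stood at 10877, 10117 and 9596 CPM in control and 8520.2, 8519.8 and 7565 CPM in SOD1 G93A libraries. The groups did not overlap, but the log2 fold change of -0.31 ± 0.11 missed the threshold (adjusted p = 0.0538). mt-Co1 of complex IV fell from 28864, 27671 and 26452 CPM to 20618, 21731 and 20143 CPM (-0.41 ± 0.11, adjusted p = 0.0199). Because it is so abundant, its share of the libraries accounted for the largest part of the difference in share: the members' share dropped by 1.93 percentage points, of which mt-Co1 made up 31.6%. The 5 complex I members made up between 2.25% (mt-Nd6) and 15.97% (mt-Nd1) each. mt-Atp6 stood at 1361, 1351 and 1579 CPM in control and 852, 1099 and 1111 CPM in SOD1 G93A libraries (-0.49 ± 0.13, adjusted p = 0.0189). When the counts of mt-Atp6 were divided by their step of 214, its adjusted p was 0.0879, and 6 members were called; this alternative was chosen after the data were seen.

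The other 2 subunits of complex IV were too variable to call. mt-Co3 had 146, 129 and 346 CPM in control and 66.1, 153 and 69.7 CPM in SOD1 G93A libraries, so the groups overlapped. Its log2 fold change was the most negative of the 10 but also had the largest error (-1.11 ± 0.42, adjusted p = 0.0726). mt-Co2 had 120.0, 69.8 and 229.6 CPM in control and 71.0, 84.8 and 113 CPM in SOD1 G93A libraries (-0.64 ± 0.37, adjusted p = 0.209). Leaving out control library 3, the highest for both, brought mt-Co3 to -0.52 and mt-Co2 to -0.08.

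Of the 3 mRNAs of mitochondrial DNA outside these 10, mt-Nd4l (complex I) and mt-Atp8 (complex V) also fell. mt-Nd4l had 1527, 1639 and 1584 CPM in control and 1005, 993 and 725 CPM in SOD1 G93A libraries (-0.80 ± 0.13, adjusted p = 0.00327). mt-Atp8 had a log2 fold change of -0.54 ± 0.10 (adjusted p = 0.0054), close to that of mt-Atp6 on the same mRNA. mt-Nd3 (complex I) had -0.10 ± 0.25 (adjusted p = 0.793). The counts of mt-Nd3 and mt-Nd4l too are stepped.

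**Figure D4:**
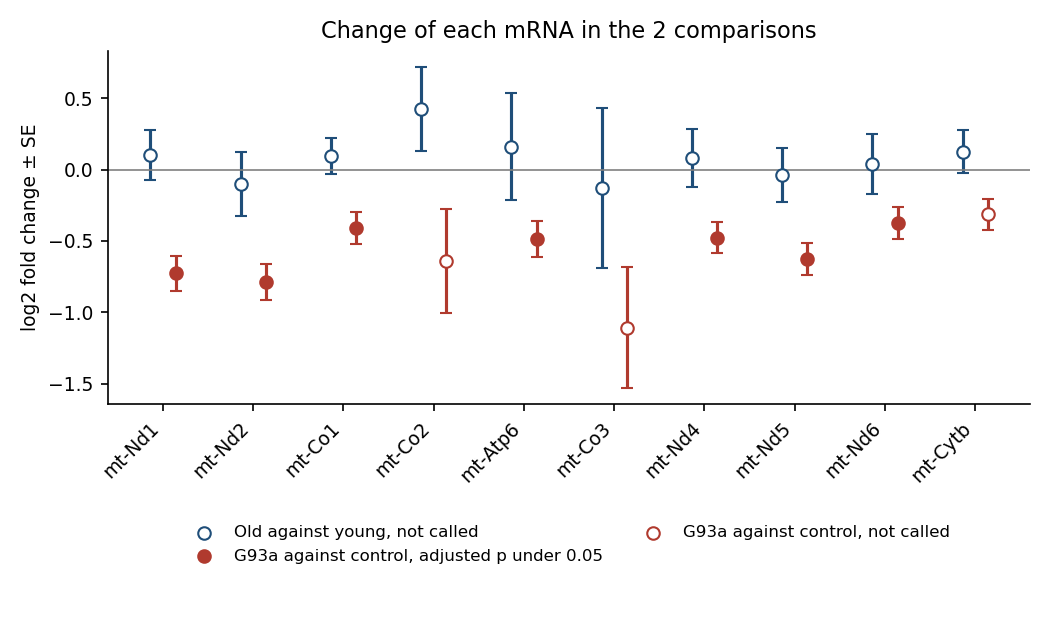
Log2 fold change ± SE of each member in old against young mice (blue) and in SOD1 G93A against control mice (red); filled points have an adjusted p under 0.05. The blue points lie between -0.13 and 0.43 and none is filled, and the red points lie between -1.11 and -0.31 with 7 filled.

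The calls in SOD1 G93A mice differed in how they held with libraries left out. mt-Nd1, mt-Nd2 and mt-Nd5 were called in 6 of 6 cases with 1 library left out, mt-Atp6 in 3, and mt-Nd4, mt-Nd6 and mt-Co1 in 2 each. Without control library 1 the number of members called dropped to 3, and without SOD1 G93A library 2 it rose to 9. The share of all genes called in these cases was not counted. All 10 members kept a negative sign in each of the 6 cases.

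The members were also compared within the mitochondrial pool. With the summed counts of the 10 members as the library size, only mt-Nd2 was called lower in SOD1 G93A mice, with a log2 fold change of -0.30 ± 0.11 (adjusted p = 0.0325), beside 1.4% of all genes called lower and 61.3% called higher on that scale, which centres the members and moved the median of all genes to 0.49. mt-Nd2 made up 9.34% ± 0.0932 (SD, n = 3) of the pool in control and 7.57% ± 0.607 (n = 3) in SOD1 G93A mice. mt-Nd1 made up 11.2% ± 0.561 in control and 9.54% ± 0.487 in SOD1 G93A mice (-0.24 ± 0.11, adjusted p = 0.0744). mt-Cytb made up 13.8% ± 0.204 and 15.6% ± 0.469 (0.18 ± 0.10, adjusted p = 0.155), and mt-Co1 37.5% ± 0.288 and 39.7% ± 1.09 (0.08 ± 0.10, adjusted p = 0.504). On this scale mt-Nd4, mt-Nd6 and mt-Atp6 also had log2 fold changes above 0, at 0.01, 0.12 and 0.0024. In aging, 0 members were called on it, beside 3.19% of all genes called higher and 0.0879% called lower. This scale was chosen after the data were seen.

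The difference between the comparisons was tested directly. For 0 of 10 members did the change in SOD1 G93A mice differ from the change in old mice at an adjusted p under 0.05, with 2 of 10 at an unadjusted p under 0.05, beside 25.8% and 37.1% of all 14502 genes tested. The closest were mt-Nd1, with a difference in log2 fold change of -0.86 ± 0.33 (SE, adjusted p = 0.0558), and mt-Co1, with -0.53 ± 0.23 (adjusted p = 0.0907). The spread of the old libraries enters this test, and for mt-Nd1 the SD was 41.3% of the mean in old but 9.77% in control mice. mt-Nd4l, outside these 10, did differ, by -0.64 ± 0.16 (adjusted p = 0.00313), but its counts are stepped, with multiples of 86 in 15 libraries.

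The nuclear genes for subunits of these complexes, with complex II, were counted in the same fits. Of 77 tested in aging, 18 rose and 0 fell (2 lower at an unadjusted p under 0.05, and 2 lower by DESeq2), with a median log2 fold change of 0.10, beside 13.5% of all genes called higher and 12.9% called lower. Those that rose included Cox6a1 (0.25 ± 0.05, adjusted p = 0.000599) and Cox4i1 (0.20 ± 0.06, adjusted p = 0.0115) of complex IV, Ndufb9 of complex I (0.25 ± 0.05, adjusted p = 0.000514) and Atp5c1, the central stalk of ATP synthase (0.18 ± 0.04, adjusted p = 0.00148). By complex, 7 of 36 rose in complex I, 2 of 4 in II, 2 of 9 in III, 4 of 13 in IV and 3 of 15 in V. Of all genes tested in aging, 37.6% had an unadjusted p under 0.05 in either direction.

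In SOD1 G93A mice, 20 of 78 nuclear subunit genes fell and 2 rose, with a median of -0.20, beside 18.4% of all genes called higher and 15.5% called lower. Those that fell included Ndufs1, the largest subunit of complex I (-0.51 ± 0.12, adjusted p = 0.0137), Ndufv2 (-0.42 ± 0.10, adjusted p = 0.0114), Sdha, the flavoprotein of complex II (-0.31 ± 0.09, adjusted p = 0.0275), Cox5a (-0.40 ± 0.10, adjusted p = 0.0139) and Atp5b, the catalytic subunit of ATP synthase (-0.36 ± 0.09, adjusted p = 0.0184). Complex I had 9 of 36 lower, complex II 1 of 4, complex III 0 of 9, complex IV 5 of 14 and complex V 5 of 15. In complex III, 4 were lower at an unadjusted p under 0.05, which 45.1% of all genes tested had in either direction. The genes that rose were Ndufa7 of complex I (0.32) and Cox6a2, a muscle form of a complex IV subunit, which had at most 4 counts in a control library and 10 to 37 counts in SOD1 G93A libraries. Without SOD1 G93A library 3 only 1 nuclear subunit gene was called, and without SOD1 G93A library 2 there were 39. Without Old library 6, 24 were called in aging, and 11 without Young library 1. The share of all genes called was not counted with a library left out, so these numbers have no background beside them.

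**Figure D5:**
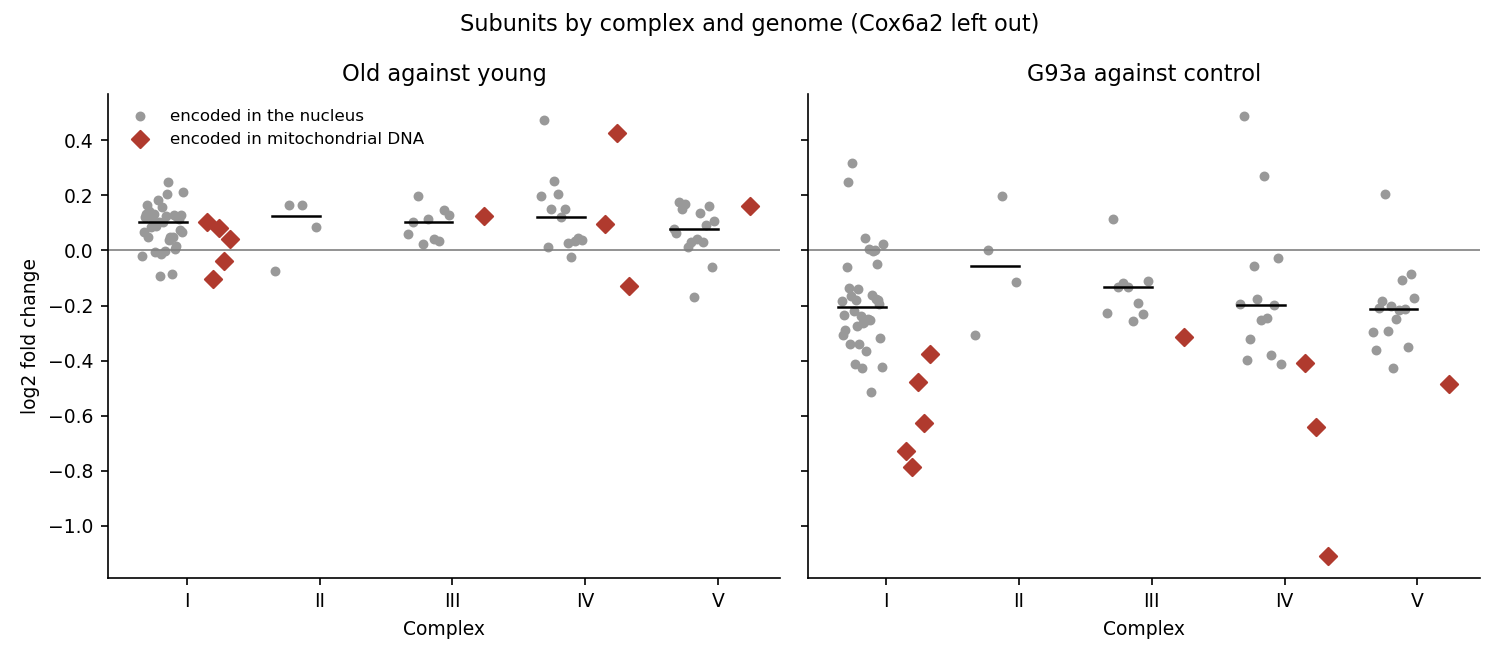
Log2 fold changes of nuclear subunit genes (grey points, with the median as a bar) and of the 10 members (red diamonds) by complex, in old against young (left) and SOD1 G93A against control mice (right); Cox6a2 (3.68) is left out of the right panel and complex II has no member. On the right the 5 complex I members lie between -0.79 and -0.38, below the median of the nuclear complex I genes at -0.21.

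Set against the nuclear subunits within a library, the mitochondrial counts were lower in SOD1 G93A mice for complex I. The ratio of the counts of the 5 complex I members to those of 36 nuclear complex I genes was 12.2 ± 0.888 (SD, n = 3) in control and 9.27 ± 0.689 (n = 3) in SOD1 G93A mice, with ranges of 11.2 to 12.9 and 8.49 to 9.79. For complex III, the ranges of 9.16 to 10.2 in control and 8.21 to 9.41 in SOD1 G93A mice overlapped, as did those of complex IV, 14.27 to 16.13 and 12.98 to 14.31. For complex V, mt-Atp6 over 15 nuclear genes, the ranges of 0.3788 to 0.436 in control and 0.302 to 0.3787 in SOD1 G93A mice adjoined without overlap. For all 10 members over 78 nuclear genes the ratio was 7.37 ± 0.436 in control and 6.17 ± 0.324 in SOD1 G93A mice, and the groups did not overlap. In aging the same ratio was 6.86 ± 1.46 (n = 8) in young and 6.85 ± 3.10 (n = 8) in old mice.

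Genes that act on mitochondrial DNA and RNA were counted from lists, beside 18.4% of all genes called higher and 15.5% called lower in SOD1 G93A mice and 13.5% and 12.9% in old mice. In SOD1 G93A mice 45.1% of all genes had an unadjusted p under 0.05, in either direction. Of 8 genes of mitochondrial transcription, 0 were called in SOD1 G93A mice, also at an unadjusted p under 0.05, and 1 fell in old mice, Mterf4, which acts on the mitochondrial ribosome (-0.30 ± 0.11, adjusted p = 0.0373). The log2 fold changes of these 8 genes in SOD1 G93A mice had a median of -0.15, with 1 above 0. Their summed level was 111.3 to 115.6 CPM in SOD1 G93A mice, beside 119.5 to 128.2 CPM in control mice. Polrmt, the mitochondrial RNA polymerase, had -0.20 ± 0.09 in SOD1 G93A mice (adjusted p = 0.135). Of 11 genes of mitochondrial DNA replication and packaging, 0 were called in SOD1 G93A mice (2 lower at an unadjusted p under 0.05) and 1 rose in old mice, Tk2, a mitochondrial thymidine kinase (0.34 ± 0.06, adjusted p = 0.000333). Tfam, which packages mitochondrial DNA and starts its transcription, had -0.28 ± 0.12 in SOD1 G93A mice (adjusted p = 0.0951).

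Of 21 genes for the processing and stability of mitochondrial RNA, 4 fell and 0 rose in SOD1 G93A mice, a share near the 15.5% of all genes called lower. They were Lrpprc, which stabilizes mitochondrial mRNAs (-0.57 ± 0.13, adjusted p = 0.0116), Ptcd3 of the mitochondrial ribosome (-0.44 ± 0.12, adjusted p = 0.019), Grsf1 of the mitochondrial RNA granules (-0.35 ± 0.09, adjusted p = 0.0191) and Fastkd5 (-0.58). In old mice 1 of the 21 fell, again Lrpprc, from 80.6 ± 4.33 to 67.2 ± 5.43 CPM (SD, n = 8; -0.26 ± 0.05, adjusted p = 0.000608). Of 13 genes of mitochondrial translation, Gfm1, an elongation factor, fell in SOD1 G93A mice (-0.65 ± 0.10, adjusted p = 0.00239) and Gfm2, a recycling factor, rose (0.57 ± 0.13, adjusted p = 0.0124), and in old mice Oxa1l, which inserts subunits into the inner membrane, rose (0.17 ± 0.05, adjusted p = 0.023). Of 20 genes often used as measures of mitochondrial content, 5 fell and 0 rose in SOD1 G93A mice, among them Tomm70a, an import receptor (-0.44 ± 0.12, adjusted p = 0.0252), and Slc25a4, an ADP/ATP carrier (-0.32 ± 0.09, adjusted p = 0.0301). In old mice 4 of the 20 rose and 2 fell.

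Markers of cell types changed in both comparisons. Of all genes tested, 18.4% were called higher and 15.5% lower in SOD1 G93A mice, and 13.5% and 12.9% in old mice. In SOD1 G93A mice 9 of 10 neuron markers fell, and their summed level was 4650 to 7490 CPM, beside 11348 to 12148 CPM in control mice. Nefl, a neurofilament, had a log2 fold change of -1.38 ± 0.19 (adjusted p = 0.00125). Of 9 motor neuron markers, 7 fell, with sums of 151 to 170.3 CPM and 314 to 341 CPM. Of 10 microglia markers, 8 rose, with sums of 1526 to 2929.9 CPM beside 376 to 459 CPM, and 5 of 8 astrocyte markers rose, with sums of 13108 to 19850.2 CPM beside 7482 to 8132 CPM. In old mice 9 of 10 microglia markers rose (619 to 1032 CPM beside 369 to 411 CPM in young mice), 4 of 10 neuron markers fell and 1 rose. Summed markers of skeletal muscle reached at most 5.25 CPM and those of lymphocytes at most 2.67 CPM in these 22 libraries. The part of cell composition in the members' levels was not tested.

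As a check of the labels, Sod1, whose reads may include those of the human transgene, rose in SOD1 G93A mice from 160.1 ± 6.56 to 310.04 ± 22.03 CPM (SD, n = 3; 0.95 ± 0.09, adjusted p = 0.000241). Sod1 also rose, by less, in old against young wild-type mice (0.19 ± 0.04, adjusted p = 0.00194). The 6 spinal cord markers were detected in every group, with sums of 790.5 to 1085 CPM in old and 896 to 1019 CPM in young mice. Their sum was 464 to 740.05 CPM in SOD1 G93A mice and 864 to 957 CPM in control mice, and 2 of the 6 fell there. Hoxb8 fell from 246 ± 8.06 to 189 ± 29.5 CPM (SD, n = 3; -0.38 ± 0.12, adjusted p = 0.0361), and Slc6a5, a glycine transporter of inhibitory neurons, from 469 ± 54.5 to 229 ± 96.6 CPM (-1.04 ± 0.25, adjusted p = 0.0133).

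Among the nuclear genes whose levels varied most like the members, after the group means were removed, were Vma21 (Pearson r = 0.865, Spearman rho = 0.828 over 22 libraries), Arl5a (0.852 and 0.835), Pibf1 (0.850 and 0.799) and Zfp91 (0.843 and 0.782), out of 13597 genes compared. The points share their library and its scaling. Without Old library 6, r for these 4 genes ranged from 0.770 for Arl5a to 0.802 for Vma21.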

How the data were processed

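Whole spinal cord RNA was sequenced in 22 libraries. The authors used STAR for alignment and RSEM for counting, with Ensembl genes on mm10 (SAMtools 1.3 is named in the submitters' processing notes), and deposited expected counts per gene, unnormalized and already whole numbers, and, in a second table, log2 values of FPKM plus 1. Every column was mapped to its group by name. No 2 libraries of a group were alike within sampling noise (chi-square per degree of freedom at least 2.52).

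Each comparison was fitted on its own with edgeR 4.0.16 (R 4.3.3): filterByExpr (minimum count 10, minimum total 15), TMM, and the quasi-likelihood test with p-values adjusted by Benjamini-Hochberg over every gene tested. A gene was called at an adjusted p under 0.05. Alternatives were other scalings, filters and thresholds, DESeq2 1.42.0, limma 3.58.1 on the log2 FPKM values, 1 fit of all libraries, and each library left out. All intervals are SDs over libraries or SEs. The SE was derived as the absolute log2 fold change over the square root of the test's F statistic. CPM were scaled by TMM within a comparison, and 3 counts corresponded to at most 0.582 CPM. Symbols came from the given gene name table, for 21842 of 21995 IDs. Sequences, positions and pseudogenes came from GENCODE M21 (blastn 2.17.0). Named genes were all members, at most 3 genes per mitochondrial list with the smallest adjusted p, at most 2 markers per list with the highest level, Sod1, and the 5 genes most like the members, of which 1 is not reported here; Ndufa7 and Fastkd5 were added after their values were seen. The members and lists were chosen with earlier results of these data known. On simulated data, log2 changes of 1 were recovered for 95% (aging) and 75% (ALS) of changed genes drawn at random, and changes of 0.5 for 74% and 23%. Labels do not say that libraries come from separate animals, which the study's methods imply; p-values measure the spread between libraries.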

Additional observations from a re-analysis of the deposited data

Results flagged for a closer look

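In Old library 6, 6 members stood apart from the other old libraries by the gap to the nearest library relative to the range of the 8. mt-Nd2 was at 12576 CPM (next 7567), mt-Nd4 at 25298 CPM (next 14336), mt-Nd5 at 10362 CPM (next 5809.9), mt-Nd6 at 4186 CPM (next 2351), mt-Cytb at 22263 CPM (next 13718) and mt-Atp6 at 1914 CPM (next 864). These came from 22 groups of values examined, of which chance sets apart about 1 in 20, and they share a library.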

How the results depend on the processing

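No paired analysis was possible because the columns carry no replicate numbers. In aging, 0 members were called under every alternative run, including each library left out. Nuclear subunit genes called in aging numbered 0 with a fold threshold of log2 1, 10 with limma on log2 FPKM, and 11 to 24 with a library left out. In SOD1 G93A mice, members called numbered 6 to 8 with RLE factors, library totals, DESeq2, other filters or scaling without mitochondrial genes, 3 with limma on log2 FPKM, 1 in a single fit of all 22 libraries (mt-Nd1), 1 with the members' sum as library size (mt-Nd2), 0 with the fold threshold, and 3 to 9 with a library left out. Nuclear subunit genes called there numbered 12 with library totals, 38 in the single fit, 1 with the fold threshold, 7 with limma, and 1 to 39 with a library left out. Members differing between comparisons numbered 0 to 1 with a library left out. Among these alternatives, the share of all genes called was counted only for the fold threshold and the members' sum as library size. The difference in share moved between -0.483 and 0.604 points in aging and between -2.12 and -1.74 in ALS with a library left out, and as a share of summed FPKM it was -0.259 in aging, where the direction turned, and -3.89 in ALS. The causes were not tested.

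In aging, signs turned with limma for mt-Nd4 (-0.0202), mt-Nd6 (-0.0786), mt-Co3 (0.64) and mt-Atp6 (-0.14), and with the members' sum as library size for mt-Nd4 (-0.0207), mt-Nd6 (-0.0742) and mt-Atp6 (-0.0748). In ALS they turned on the latter scale for mt-Nd4 (0.0108), mt-Nd6 (0.12), mt-Co1 (0.0815), mt-Cytb (0.18) and mt-Atp6 (0.0024); this scale centres the members on 0, so that some of them lie above it by construction. With a library left out, aging values ran from -0.0849 to 0.18 for mt-Nd1, -0.16 to 0.16 for mt-Nd4, -0.28 to 0.0421 for mt-Nd5, -0.24 to 0.12 for mt-Nd6, -0.0357 to 0.15 for mt-Co1, -0.58 to 0.31 for mt-Co3, -0.059 to 0.18 for mt-Cytb and -0.38 to 0.31 for mt-Atp6. A minimum of 10 counts in every library left mt-Co3 without a value in aging. Of 419 alternative values of single members, 357 kept their direction and side of the threshold, 29 fell short of it, 4 newly passed it and 29 changed sign. With 3 libraries against 3, changes of log2 0.5 were often missed in simulated counts.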
